A study of Mus musculus with 24 samples.

Results

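The loci described here are those of Kdm1a and of 4 genes whose products work with it in gene repression, Rcor1, Hdac2, Gfi1 and Gfi1b. They were taken as 5 windows of the mouse genome build GRCm39, and every deposited H3K4me3 region that overlaps a window by at least 1 bp is a member. The windows held 36 of the 63425 regions in the lists. Of these, 10 were KD regions (from the list for the knockdown), 5 were WT regions (from that for the wild type) and 21 were common regions. These are 27.8%, 13.9% and 58.3% of the members, against 23.4%, 8.4% and 68.2% of all regions in the lists. The lists overlap in places, so some sequence is in a one-sided list and in the common list, for example 255 bp at Gfi1b. The one-sided shares of marked length below include such sequence.

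The cells were splenocytes from leukemic Eµ-TCL1A mice of strain C57BL/6, in which the Eµ enhancer of the immunoglobulin heavy chain drives a TCL1A transgene in B cells. All groups share this transgene and the leukemia. One condition had no treatment (wild type) and the other had a KDM1A knockdown. Each had 6 libraries with an antibody against H3K4me3 and 6 input libraries, from 3 biological replicates sequenced as 2 technical replicates. The labels do not say how the knockdown was made, how old the mice were or whether animals were pooled, and the cell type was not checked against markers. The 3 lists compare the conditions as a whole and hold 0 columns of values per library. For this reason the spread between replicates is not known for any value below, no test was run, and depth is unknown.

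H3K4me3, the trimethylated form of lysine 4 of histone H3, marks the starts of active and poised genes. KDM1A (LSD1) removes methyl groups from the mono- and dimethylated forms of this lysine and cannot act on the trimethylated form. It works in a corepressor complex with RCOR1 (CoREST), the scaffold that lets it act on nucleosomes, and with the histone deacetylases HDAC1 and HDAC2. GFI1 and GFI1B are related zinc-finger repressors of blood cells that bind DNA at an AATC core and recruit this complex through their SNAG domain. GFI1 is known for roles in lymphoid and granulocytic cells, and GFI1B for roles in red cell and platelet precursors. Both factors are known to repress their own genes and each other's.

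The promoters of the 3 genes at which the highest-scoring one-sided regions were found are shown first, because the GFI1 and GFI1B recognition core can be looked for in them. They run from 250 bases before to 50 bases after the gene start, are written 5′ to 3′ and come from RefSeq on GRCm38.p6, where all 3 genes lie on the minus strand. Capitals mark AATC on either strand, which reads GATT on the opposite one. They could not be placed on GRCm39, so whether a listed region covers them is not known.
Gfi1b: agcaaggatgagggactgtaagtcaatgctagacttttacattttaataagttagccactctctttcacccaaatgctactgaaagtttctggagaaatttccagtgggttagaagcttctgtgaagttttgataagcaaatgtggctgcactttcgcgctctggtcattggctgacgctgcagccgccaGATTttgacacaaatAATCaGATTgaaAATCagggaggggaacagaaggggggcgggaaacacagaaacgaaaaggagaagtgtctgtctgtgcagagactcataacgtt
Gfi1: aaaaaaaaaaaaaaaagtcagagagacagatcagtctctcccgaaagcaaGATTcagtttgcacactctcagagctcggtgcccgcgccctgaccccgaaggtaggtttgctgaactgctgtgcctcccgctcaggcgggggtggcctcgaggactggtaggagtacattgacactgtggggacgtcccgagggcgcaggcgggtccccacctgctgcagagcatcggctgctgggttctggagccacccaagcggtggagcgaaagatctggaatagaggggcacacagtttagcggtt
Kdm1a: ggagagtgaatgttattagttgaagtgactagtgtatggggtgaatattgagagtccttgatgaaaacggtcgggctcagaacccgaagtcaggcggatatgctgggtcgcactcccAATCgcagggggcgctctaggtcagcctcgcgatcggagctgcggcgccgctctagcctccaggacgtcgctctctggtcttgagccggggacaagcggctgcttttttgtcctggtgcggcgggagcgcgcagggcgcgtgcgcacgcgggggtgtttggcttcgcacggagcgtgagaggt

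The Gfi1b promoter held 4 AATC cores, and the Gfi1 promoter above and the Kdm1a promoter held 1 each. The Rcor1 and Hdac2 promoters held 0, as did the other promoter that RefSeq lists for Gfi1. Among all 32851 promoters of this length, 73.1% held the core and 10.1% held it at least 4 times. The longer motif AAATCA, which contains the core, was found on either strand in 1 place in the Gfi1b promoter, in 14% of all promoters and in none of the other promoters of these genes. A match describes letters and is not a binding site. The GC content was 44.3% in the Gfi1b promoter and 58 to 69.7% in the other promoters of these genes. The median of all promoters was 52.7%. Whether the number of cores goes along with GC content was not tested. The promoters also differed in CpG content, which at many genes goes along with H3K4me3. Hdac2 had 36 CpG in 300 bases, Rcor1 31 and Kdm1a 29. Gfi1 had 16 and 10 in its 2 promoters and Gfi1b had 7, and the median of all promoters was 7 (quartiles 3 and 20).

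Each region carries a score deposited by the authors, without a definition in the file headers. It was at least 3.08 in KD regions and 3.10 in WT regions and at most 2.86 in common regions. For common regions it does not say which condition was higher. Regions at most 1 kb apart were merged into domains, and the domain with the most common sequence in a window is called its leading domain. Gene starts were not placed on GRCm39, so no domain is called a promoter, and "upstream" and "downstream" below refer only to the strand of the gene in RefSeq.

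Every window held H3K4me3 common to both conditions, and the one-sided part of the mark differed in kind from locus to locus. Kdm1a had wild-type signal at an edge, Rcor1 had KD pieces of 314 and 1052 bp in its leading domain, Hdac2 had a KD piece of 225 bp and Gfi1 had a long WT extension. In the Gfi1b window the common part was the larger, and the KD regions lay together in 1 domain. Of the 5 leading domains, 2 held a KD region (Rcor1 and Hdac2) and 3 held a WT region (Kdm1a, Rcor1 and Gfi1). The other 1, in the Gfi1b window, held common regions alone. It lies 16768 bp from the domain with the Gfi1b KD regions and was not assigned to Gfi1b or to a neighbouring gene. Over all 24463 domains with a common region in the series, 25.6% also held a KD region, 12.7% a WT region and 36% either. Longer domains held one-sided regions more often. Among domains within 1.5 times the length of each leading domain, 23.7 to 50.9% held a KD region and 13.8 to 21.2% held a WT region. The windows were proposed with results of these data known, so this count is a description.

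**Figure D1:**
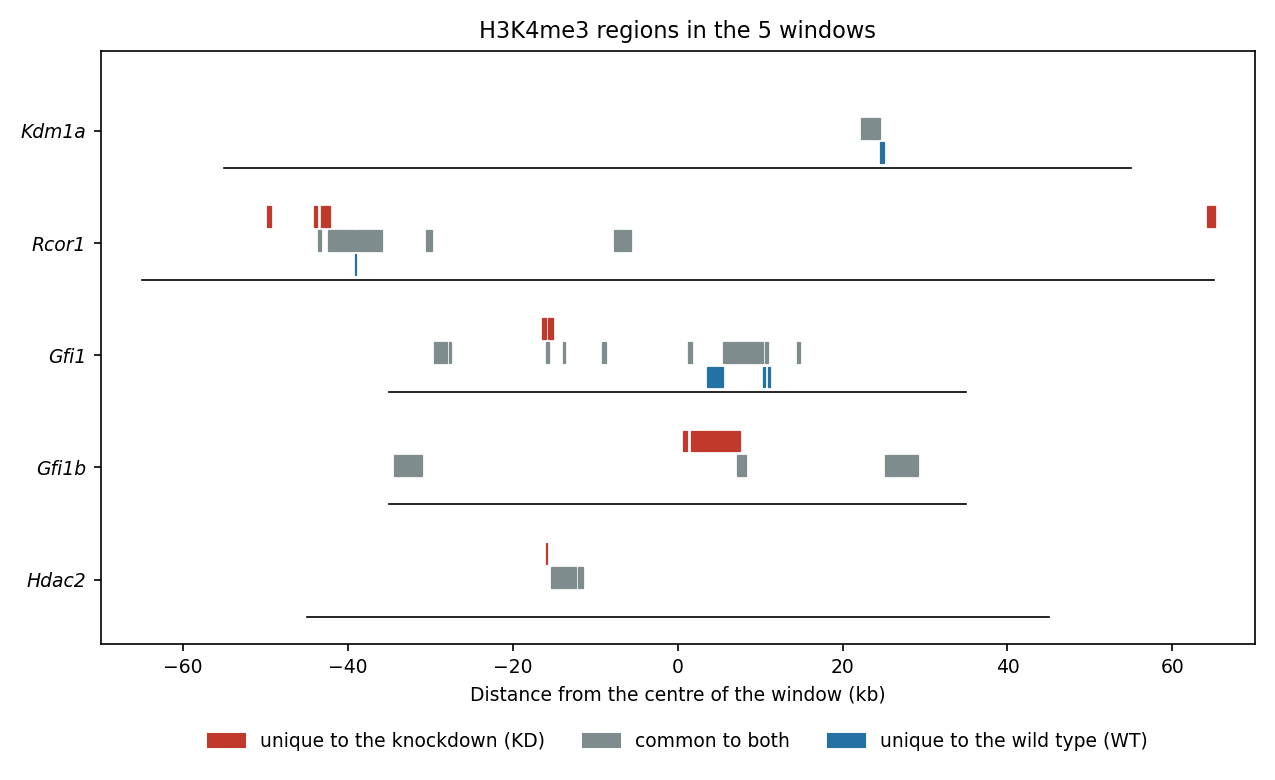
Each row is 1 window, with the black line as its extent and distance from its centre on the horizontal axis in kb. Bars are KD regions (red), common regions (grey) and WT regions (blue). Kdm1a and Hdac2 have 1 domain each, while the Rcor1, Gfi1 and Gfi1b windows have 5, 7 and 3.

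At Kdm1a, the gene targeted by the knockdown, most of the mark was shared and its upstream end was listed as unique to the wild type. The window on chromosome 4 from 136.25 to 136.36 Mb held 1 common region and 1 WT region and no KD region. Over autosomal windows of the same 110 kb with a common region, 49.8% held a KD region and 34.9% a WT region. The common region at chr4:136327258-136329546 was 2289 bp long, longer than 75.3% of common regions, with a score of 0.33. The WT region at chr4:136329524-136330062 was 539 bp long and had a score of 10.9, above 85.9% of WT regions. Together they formed a domain of 2805 bp, of which the WT region covered 19.2%. It lay at the higher-coordinate edge, which is the upstream side because Kdm1a is on the minus strand. This make-up, 1 common and 1 WT region in a domain, was shared by 577 of the 3110 domains that held both kinds, and the WT share of marked length in those 3110 had a median of 15.4%. The share at Kdm1a ranked 1334 among them, so it was not at an extreme.

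The Kdm1a domain had wide flanks with no listed region. The nearest domain lay 128 kb away on the lower side and 444 kb on the higher side, against a median gap of 17 kb between neighbouring domains. In RefSeq order its protein-coding neighbours are Luzp1 and Tex46. The mark is not a measure of the transcript, so these regions do not check the knockdown, and the level of Kdm1a RNA was not analysed here.

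At Rcor1, which encodes the scaffold that ties KDM1A to nucleosomes, a broad shared domain carried KD pieces on its upstream side and a short WT piece inside it. The window on chromosome 12 from 110.98 to 111.11 Mb held 4 KD, 1 WT and 5 common regions in 5 domains. Of the autosomal windows of 130 kb with a common region, 52.3% held a KD region and 38.1% a WT region, and 17.9% held at least 4 KD regions. The leading domain at chr12:111000927-111009109 spanned 8183 bp, longer than 93.3% of domains with a common region. It contained 3 common regions of 405, 3227 and 3109 bp. KD regions covered 16.9% of its marked length and the WT region 2.55%. Domains with all 3 kinds were 2.26% of domains with a common region and 8.52% of those of similar length.

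The one-sided pieces of the Rcor1 domain differed in length. A KD region of 314 bp at chr12:111000927-111001240 (score 5.83) stood 115 bp before the first common region, at the upstream edge. A KD region of 1052 bp at chr12:111001728-111002779 (score 5.48) bridged the first and the second common region, overlapping common sequence by 242 bp. The WT region at chr12:111005798-111006003 filled the break between the second and the third common region with 206 bp and a score of 5.53. It was longer than only 1.54% of WT regions, and its score was above 52.9% of them. The KD region of 314 bp had a score above 77.5% of KD regions. The KD bridge was longer than 91.1% of KD regions and had a score above 72.8% of them.

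The flanks of the Rcor1 domain held both shared and KD-only marks. Upstream, a KD region of 526 bp with a score of 6.61 (chr12:110995146-110995671) formed a domain of its own, 5255 bp from the leading one. Downstream followed 2 domains of common sequence alone, of 731 and 2026 bp, at chr12:111014469-111015199 and chr12:111037271-111039296. At the far end a KD region of 944 bp with a score of 5.94 (chr12:111109223-111110166) formed a domain of its own, 69926 bp from the last of these. It was longer than 89.4% of KD regions and ran past the limit of the window. The next domain lay 4985 bp beyond it, outside the window. Widening the window by 50 kb on each side raised the counts from 4 to 16 KD and from 5 to 20 common regions. In RefSeq order Rcor1 lies between Ankrd9 and Traf3, and no flanking region was assigned to any of these genes.

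At Hdac2, which encodes a deacetylase of the complex, nearly all of the mark was shared. The window on chromosome 10 from 36.82 to 36.91 Mb held 2 common regions and 1 KD region in 1 domain. Of the autosomal windows of 90 kb with a common region, 47.4% held a KD region and 31.7% a WT region. The common regions at chr10:36849605-36852702 and chr10:36852962-36853515 were 3098 and 554 bp long, with scores of 0.74 and 0.46. The KD region at chr10:36848974-36849198 was 225 bp long, longer than 9.98% of KD regions, and had a score of 5.05. It stood 406 bp before the first common region, on the upstream side, and made up 5.80% of the marked length of a domain of 4542 bp. Among domains of similar length 29.9% held a KD region. With regions of at least 500 bp no KD region was left in the window.

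The Hdac2 domain had flanks with no listed region, far longer on the lower side than on the higher side. The nearest domain on the lower side was 2.55 Mb away, the 128th largest of 28482 gaps between neighbouring domains, and the nearest on the higher side was 157 kb away. Hs3st5 and Marcks are its protein-coding neighbours in RefSeq. The 2 Mb around the window held 12 KD, 1 WT and 20 common regions, and those outside the window all lay on its higher side.

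At Gfi1, a repressor gene of lymphoid and granulocytic cells, a broad shared domain was extended by a long WT region on its downstream side. The window on chromosome 5 from 107.83 to 107.9 Mb was the richest in regions, with 2 KD, 3 WT and 9 common regions in 7 domains. Of the autosomal windows of 70 kb with a common region, 44.3% held a KD region and 27.9% a WT region. A count of at least 3 WT regions was reached by 2.91% of them and a count of at least 9 common regions by 10%. Of the 3 WT regions, 1 was left with scores of at least 5, with a minimum at the median WT score, or with lengths of at least 500 bp, and 3 common regions were left at that length. The leading domain at chr5:107868589-107876203 spanned 7615 bp, longer than 92.2% of domains with a common region, and no KD region lay in it.

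WT regions covered 2371 bp of that Gfi1 domain, or 31.3% of its marked length, at both ends and in between. The median WT share in the 3110 domains with common and WT regions was 15.4%. Among these the Gfi1 domain ranked 939 by WT share and 114 by WT length. Its longest WT region, at chr5:107868589-107870455, was 1867 bp long with a score of 13.2. It ranked 202 by length and 444 by score of 5324 WT regions, and 76 WT regions, itself included, were at least as long and scored at least as high. It adjoined a common region of 4890 bp at chr5:107870453-107875342, longer than 94.4% of common regions, on the downstream side. The other WT regions lay at the upstream end. They were 298 bp long with a score of 4.24 (chr5:107875343-107875640) and 206 bp long with a score of 3.87 (chr5:107875998-107876203), both below the median score of WT regions of 5.29. Between them was a common region of 394 bp at chr5:107875556-107875949.

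Elsewhere in the Gfi1 window the one-sided signal pointed the other way. A domain of 1288 bp at chr5:107848598-107849885, on the downstream side of the gene's strand, held a common region of 317 bp with a KD region on either side. These KD regions were 400 bp with a score of 7.70 and 559 bp with a score of 3.76. The scores were above 89.4% and 20.5% of KD regions. Together the 2 KD regions covered 75.8% of the domain's marked length. The common region inside the domain had a score of 1.74, and the neighbouring common region of 225 bp at chr5:107851099-107851323 had a score of 1.77. These 2 common scores lie above 93.0% and 93.3% of common regions, whose highest score is 2.86. The remaining domains were common sequence alone and ranged from 225 to 2110 bp. In RefSeq order Gfi1 lies between Rpap2 and Evi5.

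At Gfi1b, the relative of Gfi1 that acts in red cell and platelet precursors, a common region of 1160 bp adjoined one of the longest KD regions of the series. The window on chromosome 2 from 28.47 to 28.54 Mb held 3 KD and 4 common regions and no WT region. The background for windows of its 70 kb is that given for Gfi1, and 16.8% of such windows held at least 3 KD regions. Of the 3 KD regions, 1 was at least 500 bp long. All 3 KD regions lay in 1 domain, which was singled out after its values were seen. It spanned 7656 bp at chr2:28505689-28513344, longer than 92.3% of domains with a common region. KD regions covered 6233 bp or 87.3% of its marked length, against a median of 18.9% in the 6260 domains that held common and KD regions. It ranked 61 among those by KD length and 147 by KD share.

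The main Gfi1b KD region stood near the top of its list. At chr2:28506660-28512186 it was 5527 bp long with a score of 23.6, which is 16.2 times the median length and 5.26 times the median score of KD regions. It ranked 18 by length and 89 by score of 14823, and 2 KD regions, itself included, were at least as long and scored at least as high. Its upstream end overlapped by 2 bp a common region of 1160 bp at chr2:28512185-28513344, whose score of 1.14 was above 81.9% of common regions. From there it ran in the direction of the gene's transcription on the minus strand. After a gap followed a KD region of 451 bp with a score of 11.1 at chr2:28505689-28506139, above 95.4% of KD scores. The third KD region, of 255 bp with a score of 3.74, lay wholly inside the common region at chr2:28512321-28512575.

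The other domains of the Gfi1b window were shared. One at chr2:28470528-28473941 was a common region of 3414 bp, 31747 bp below the KD-rich domain. The leading domain by common sequence, at chr2:28530113-28534178, held 2 common regions in 4066 bp and lay 16768 bp above it. Gtf3c5 and Tsc1 are the protein-coding neighbours of Gfi1b in RefSeq, in that order, and the shared domains were not assigned to them or to Gfi1b. The 2 Mb around the window held 10 KD regions, these 3 included, with 8 WT and 55 common regions.

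**Figure D2:**
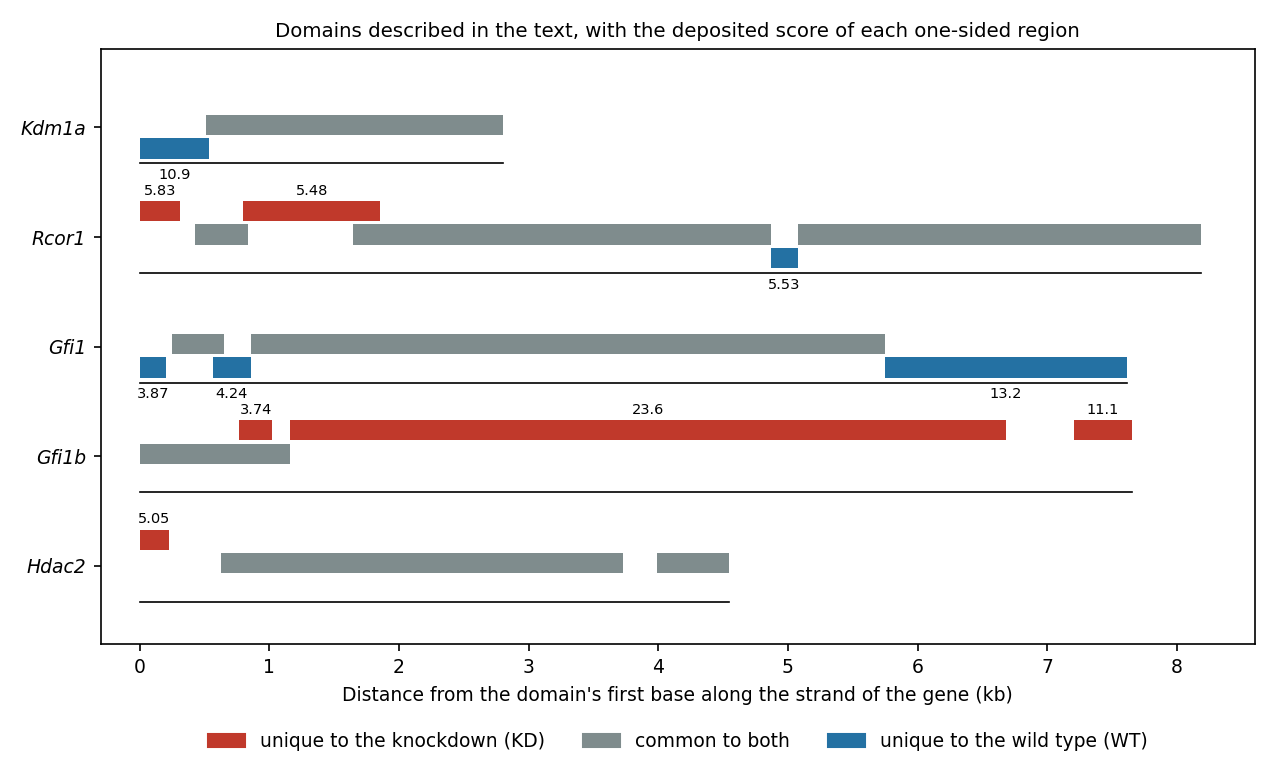
The leading domains of Kdm1a, Rcor1, Gfi1 and Hdac2 and the KD-rich domain of Gfi1b, in kb from the first base along the strand of the gene. Bars are KD (red), common (grey) and WT (blue) regions, and numbers are the deposited scores. The longest KD bar of Gfi1b and the longest WT bar of Gfi1 both lie downstream of common sequence. The WT bar of Kdm1a lies upstream of it. The shorter WT bars of Gfi1 lie towards the upstream end.

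The leading Gfi1 domain and the KD-rich Gfi1b domain, the latter chosen after its values were seen, held their longest one-sided stretches in opposite lists. Their spans were 7615 and 7656 bp, but 13607 and 7656 bp when regions were joined over 5 kb. The KD-rich domain of 1288 bp in the Gfi1 window had the same direction as that of Gfi1b. Both of the longest stretches lay downstream of common sequence on the gene's strand. At Gfi1 the common part was the larger, with 5284 bp against 2371 bp of WT regions. At Gfi1b it was the smaller, with 1160 bp against 6233 bp of KD regions. Of domains with a common region and a length within 1.5 times that of the Gfi1b domain, 47.6% held a KD region and 21% a WT region.

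**Figure D3:**
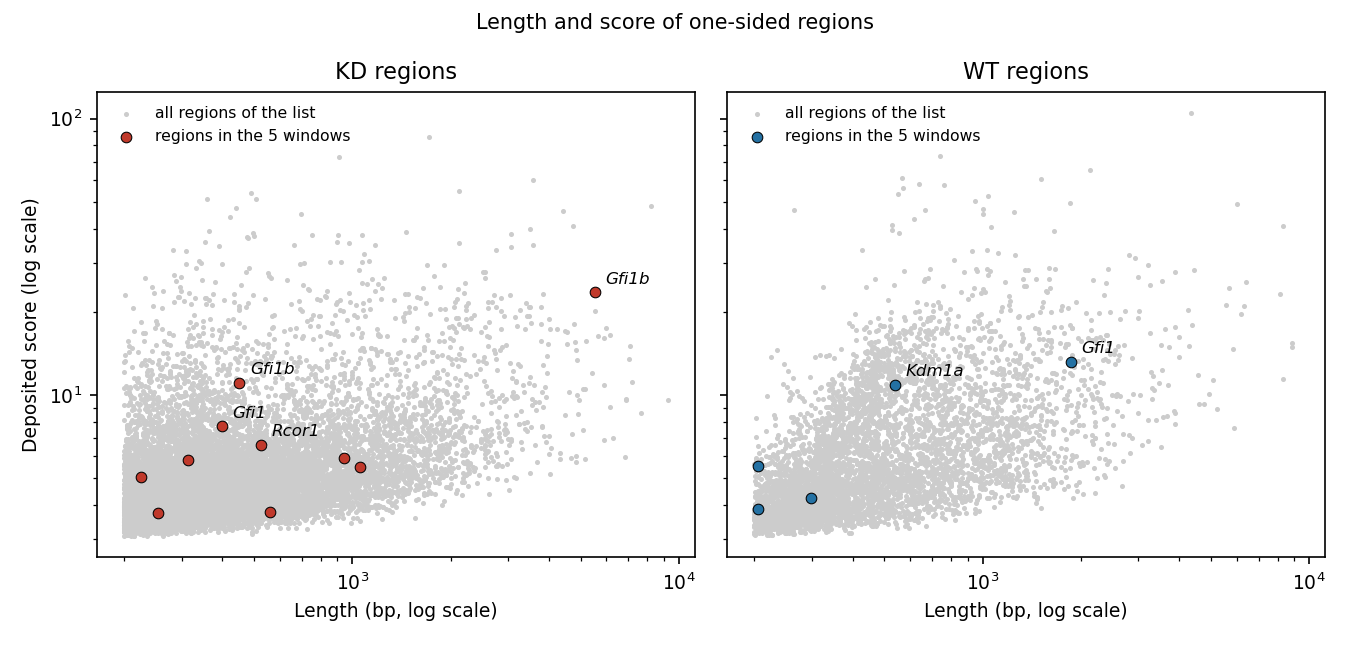
Length in bp against deposited score, both on log scales, for all KD regions (left) and all WT regions (right) in grey and for those in the 5 windows in colour. The Gfi1b region of 5527 bp stands at the upper right of the KD regions, and the Gfi1 and Kdm1a regions score 13.2 and 10.9 among the WT regions.

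The loci also differed in how much of the marked length was one-sided. KD and WT regions covered 43% of the marked length in the Gfi1b window, 26.9% in the Gfi1 window, 23.7% in the Rcor1 window, 19.2% in the Kdm1a window and 5.80% in the Hdac2 window, against 14% over the 19 autosomes. With windows widened by 50 kb on each side the share was 24.8% at Gfi1b and 25.7% at Gfi1, so the order of these 2 loci turned. KD regions alone took 43%, 7.76%, 22%, 0% and 5.80% in these windows and 9.92% over the autosomes. WT regions took 0%, 19.2%, 1.70%, 19.2% and 0%, against 4.09%. The Gfi1b share rested on 1 region, since its main KD region made up 5527 of the 6233 bp. Over the 5 windows together, KD regions covered 10087 bp and WT regions 3116 bp.

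**Figure D4:**
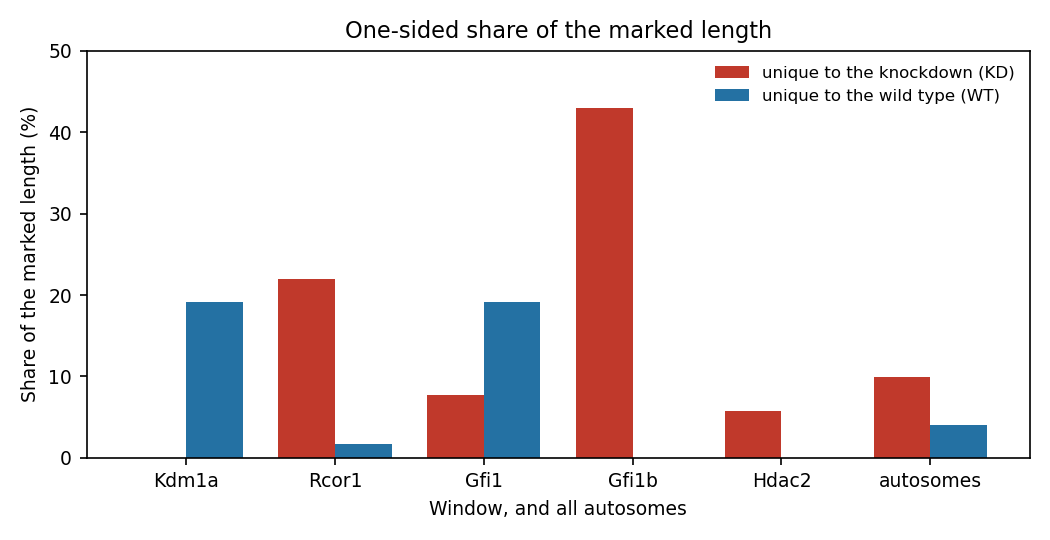
Share of the marked length, in percent, taken by KD regions (red) and WT regions (blue) in each window and over the 19 autosomes, with no error bar because the lists hold no replicate values. KD regions take 43% at Gfi1b, and WT regions take 19.2% at Kdm1a and at Gfi1.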

How the data were processed

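H3K4me3 ChIP-seq of wild-type and KDM1A-knockdown leukemic splenocytes was available as 3 region lists. The tools named in the submitters' processing notes are MACS2 2.2.6, Bowtie2 2.2.9 and SAMtools 1.6, and the build is GRCm39. Their roles, settings, filters and any pooling of replicates are not given in the sources used. The authors deposited 1 score per region, whose scale the file headers do not define. It was used to rank regions within their own list and as a minimum in the alternatives. Across the KD and WT lists it served only to choose the 3 genes whose promoters are shown.

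The analysis used scipy 1.17.1, numpy 2.4.6, pandas 2.3.3 and matplotlib 3.10.9 under Python 3.11.15. Ranks and backgrounds leave out unplaced contigs, which carry 26 common and 2 WT regions. Covered lengths count overlapping sequence only 1 time. Lengths in windows end at the limits of the window. Background windows were laid end to end over the autosomes. The code for domains was tested on simulated regions. Coordinates are 1-based. No test was run.

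The named genes are the 5 of the rule, with every region in their windows. Members and lists were chosen with earlier results of these data known. The gene and promoter tables at hand are for GRCm38.p6 and matched all 5 genes by symbol. They served for names, strand, order and sequence, and other genes of KDM1A complexes were therefore not counted. Alternatives changed the score minimum, the length minimum, the overlap, the window limits and the joining gap.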

Additional observations from a re-analysis of the deposited data

How the results depend on the processing

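Of 125 alternative values, 86 stayed equal to the reported one or, for counts, within 1.5 times of it, and for shares of all domains inside the 95% Wilson interval, which covers counting error only. The other 39 moved, and beyond what each setting leaves out or adds the cause was not tested. The 86 include values that could not move, so the tally does not measure stability. Common regions were never filtered by score, and a count of 0 stays 0 when regions are only left out. With scores of at least 5, the Gfi1 window kept 1 KD and 1 WT region, with 19.9% one-sided, the Gfi1b window had 41.2% one-sided, the Gfi1 leading domain was 7361 bp, and 9.55% of all domains with a common region held a KD and 7.3% a WT region. At or above the median score of each list, the Gfi1 window again kept 1 KD and 1 WT region. Under these 2 score settings the regions in the Kdm1a, Rcor1 and Hdac2 windows kept their counts. With regions of at least 500 bp, the Rcor1 window had 0 WT regions (21% one-sided), Gfi1 had 1 KD, 1 WT and 3 common regions (25.6%), Gfi1b had 1 KD region (40.2%), and Hdac2 had 0 KD regions (0%). With windows widened by 50 kb on each side, Rcor1 had 16 KD and 20 common regions (23.6%), Gfi1 had 25.7% one-sided, and Gfi1b had 1 WT and 10 common regions (24.8%). With domains of touching regions, the leading domains were 7754 bp at Rcor1, 7361 bp at Gfi1, 3662 bp at Gfi1b and 3098 bp at Hdac2. Then 1 held a KD region and 2 held common regions alone, the KD-rich Gfi1b domain was 6685 bp, and 15.2% and 8.06% of all domains held a KD and a WT region. Joining over 5 kb gave 13607 bp at Gfi1 and shares of 29.8% and 16.1%. Without chromosome 15, which was chosen after seeing the data like the settings for the KD-rich Gfi1b domain, 24.2% of all domains with a common region held a KD region. No paired analysis was possible because every value comes from both conditions as a whole, and no replicate could be left out for the same reason. Depth is unknown, so what it limits cannot be stated.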
